A study of Mus musculus and Rattus norvegicus with 21 samples.

Results

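Dense clusters of NKX2.1 and PAX8 sites were stretches of the mouse genome in which peaks of these transcription factors (TFs) lay close together in the thyroid gland. The NKX2.1 and PAX8 peak lists were pooled, peaks within 50 bp of each other were merged into sites, sites separated by gaps of at most 5 kb were joined, and groups with 6 or more sites were kept. Members were thus chosen by the positions of the NKX2.1 and PAX8 peaks. This rule gave 227 clusters among 50513 groups of joined sites, with 1499 of the 74119 sites (2.02%). The remaining groups were 15610 of 2 to 5 sites and 34676 of 1 site, which served for comparison. Since the rule counted peaks of both TFs, the number, length and factor mix of the clusters are given as descriptions, whereas histone marks, annotation and DNA sequence were not used to choose them.

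Peaks came from chromatin immunoprecipitation followed by sequencing (ChIP-seq) of mouse thyroid glands, and the series of 21 samples also held libraries of a rat thyroid cell line, which were not used here. NKX2.1 and PAX8 were each mapped in 1 library from C57BL/6 mice that the labels give as WT, 1 month old and kept on TD.95125, a diet low in iodine (LID). According to the study's methods, these mice instead carried a GLIS3-EGFP fusion protein, were older and had been on the LID longer, and this conflict was not resolved. Histone H3 trimethylated at lysine 4 (H3K4me3) and at lysine 27 (H3K27me3) were mapped in 4 groups of 1-month-old C57BL/6 mice. The groups were Glis3KO-LID, WT-LID, Glis3KO-ND and WT-ND. Glis3KO stands for mice deficient in the TF GLIS3, and ND for the NIH-31 normal diet. The labels name the Glis3KO allele B6.Glis3<tm2(mCherry)Amj>, whereas the study's methods give a different allele number, and this was not resolved. Each mark had 1 library in each group and each TF 1 library in all, so that no value has a replicate, no test between groups was run, and intervals cover the counting of regions only. Factor and histone peaks may stem from different mice.

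NKX2.1 is a homeodomain protein and PAX8 a paired domain protein, and the thyroid follicular cell needs both for its development and for the genes of thyroid hormone (TH) synthesis. Regulatory regions often hold several binding sites in a row, and long stretches with many bound sites have been described near genes that are characteristic of a cell type. H3K4me3 marks active and poised promoters, and H3K27me3 is laid down by Polycomb repressive complex 2 over silenced genes. An LID raises thyroid-stimulating hormone, the pituitary signal that drives the follicular cell.

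Sequences of single sites are shown first because each cluster is a row of such sites, and they are taken from the RefSeq GRCm38.p6 assembly (mm10), plus strand, 100 bases around the midpoint of a site. Capitals mark matches on either strand to CAAGTG or CTCAAG, searched for NKX2.1, and to GCNTGAC, searched for PAX8. A match to CAAGTG and one to CTCAAG can overlap in the run CTCAAGTG and its reverse complement CACTTGAG. The cluster of 10 sites at Mir148a and the cluster of 11 sites nearest to Agps are shown because they had among the most sites, and they show that sites of both TFs within a cluster can hold several matches or none in these windows.
Mir148a cluster, site of both factors, chr6:51261476-51261575: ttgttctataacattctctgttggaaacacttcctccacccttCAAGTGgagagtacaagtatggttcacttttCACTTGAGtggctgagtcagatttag
Mir148a cluster, another site of both factors, chr6:51262675-51262774: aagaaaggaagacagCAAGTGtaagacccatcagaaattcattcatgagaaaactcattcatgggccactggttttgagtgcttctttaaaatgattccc
Mir148a cluster, further site of both factors, chr6:51267001-51267100: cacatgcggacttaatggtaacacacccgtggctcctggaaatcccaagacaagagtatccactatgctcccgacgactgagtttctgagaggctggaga
Agps cluster, site of both factors, chr2:75763422-75763521: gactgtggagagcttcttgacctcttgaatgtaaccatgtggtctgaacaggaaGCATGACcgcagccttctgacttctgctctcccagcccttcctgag
Agps cluster, another site, PAX8 alone, chr2:75765635-75765734: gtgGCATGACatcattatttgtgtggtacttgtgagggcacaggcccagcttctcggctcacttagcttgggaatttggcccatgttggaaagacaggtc

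Clusters in which nearly all sites carried both TFs are represented by Mecom, where 6 of 7 sites had both, and by Eya2, where 5 of 6 had both. The sites shown lay in introns of these genes. They were chosen for their matches, and every other site of the Mecom and Eya2 clusters held no match in its window.
Mecom cluster, site of both factors, chr3:30469168-30469267: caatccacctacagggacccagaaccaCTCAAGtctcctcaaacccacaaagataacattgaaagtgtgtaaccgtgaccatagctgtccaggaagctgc
Mecom cluster, another site of both factors, chr3:30474220-30474319: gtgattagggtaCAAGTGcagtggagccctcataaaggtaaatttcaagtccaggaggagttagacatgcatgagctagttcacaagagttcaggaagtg
Eya2 cluster, site of both factors, chr2:165634659-165634758: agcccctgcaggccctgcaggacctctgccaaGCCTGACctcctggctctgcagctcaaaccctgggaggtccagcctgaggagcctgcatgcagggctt

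Kcnj15 illustrates a more even mix. At this gene, 3 of 9 sites had both TFs. The first one shown lay within the gene, and less than 1 kb upstream of the curated TSS of Gm31641, a non-coding gene on the minus strand. The cluster contained no protein-coding start. This first site held a PAX8 match at either end of the window, and the site of both TFs that is not shown held no match.
Kcnj15 cluster, site of both factors near a TSS, chr16:95259666-95259765: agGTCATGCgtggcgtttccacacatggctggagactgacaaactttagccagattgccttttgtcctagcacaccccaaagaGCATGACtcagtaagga
Kcnj15 cluster, intronic site of both factors, chr16:95286036-95286135: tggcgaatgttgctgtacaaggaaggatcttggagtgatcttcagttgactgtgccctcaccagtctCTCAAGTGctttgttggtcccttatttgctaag

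The median length was 14713 bp (range 7492 to 33014 bp) and the median density 0.43 sites per kb (range 0.26 to 0.80). In all, 146 clusters had 6 sites, 45 had 7, 22 had 8, 9 had 9, 4 had 10 and 1 had 11. Just outside the threshold stood 385 groups of 5 sites, with a median length of 10523 bp, against 13474 bp in the 146 clusters of 6 sites. The gap between neighbouring sites was 2266.5 bp in the median, and 24.7% of the 1272 gaps were shorter than 1 kb. Sites themselves took up 13.8% of the cluster length in the median, so most of each cluster was DNA between peaks. Together the clusters spanned 3.49 Mb.

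**Figure D1:**
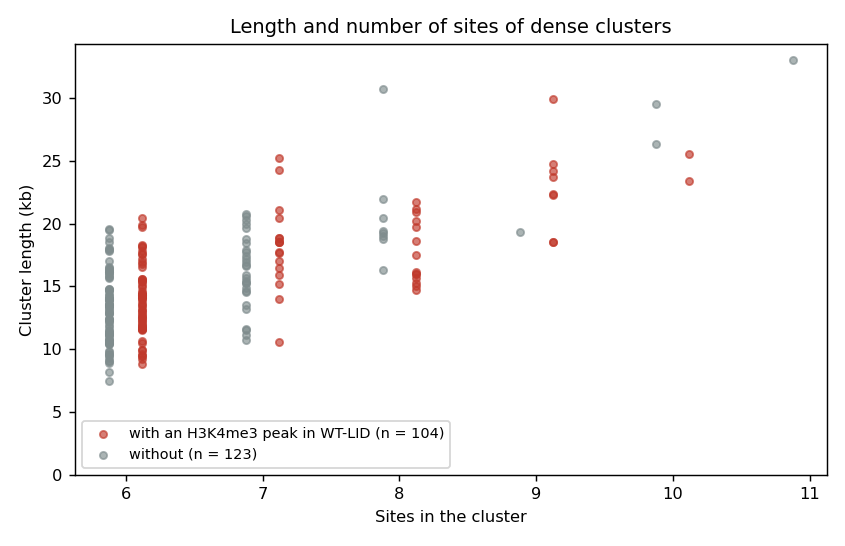
Length in kb (vertical axis) against number of sites (horizontal axis) of the 227 dense clusters, each a point, with red points (n = 104) for clusters overlapping an H3K4me3 peak in WT-LID and grey points (n = 123) for the others, offset sideways for legibility. Lengths ran between 7492 and 33014 bp, and clusters of 6 sites made up 146 of the points.

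Every cluster had peaks of both TFs, with 953 NKX2.1 and 1040 PAX8 peaks in all. Of the 1499 sites, 494 (33.0%, Wilson 95% interval 30.6 to 35.4%) carried both TFs, 459 (30.6%) NKX2.1 alone and 546 (36.4%) PAX8 alone. Sites of both TFs made up 33.4% in groups of 2 to 5 sites and 31.5% in groups of 1 site, so that the mix in clusters was close to that elsewhere. The distance between the midpoints of the NKX2.1 and PAX8 peaks at sites of both was 37.5 bp in the median in clusters, against 37 bp in groups of 2 to 5 sites and 37 bp in groups of 1 site.

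**Figure D2:**
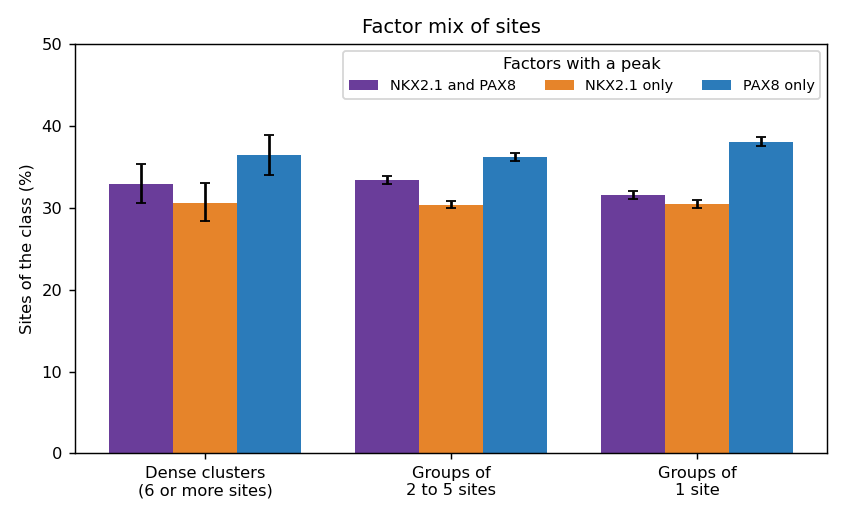
Percent of sites (vertical axis) with peaks of both TFs (purple), NKX2.1 alone (orange) or PAX8 alone (blue) in dense clusters, groups of 2 to 5 sites and groups of 1 site, with Wilson 95% intervals over sites as error bars. Sites of both TFs were 33.0%, 33.4% and 31.5% of the sites in these classes.

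Single clusters differed widely in their mix. The share of sites with both TFs ran between 0 and 85.7%, with 33.3% in the median. All 3 kinds of site occurred in 180 clusters, 58 clusters had both TFs at 50% or more of their sites, and 20 had no site of both. PAX8 peaks outnumbered NKX2.1 peaks in 105 clusters, NKX2.1 peaks outnumbered PAX8 peaks in 77, and 45 had equal numbers. The outermost sites of a cluster carried both TFs in 33.9% of 454 sites, against 32.5% of the 1045 sites between them. Of 1272 pairs of neighbouring sites, 382 were of the same kind.

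Clusters were also built from each list alone, so that the list of the other TF was a readout the rule had not used. With NKX2.1 alone 13 clusters of 6 or more sites were found, and 49 of their 83 sites (59.0%, interval 48.3 to 69.0%) lay within 50 bp of a PAX8 peak, against 50.4% of 28822 NKX2.1 sites that stood alone. With PAX8 alone 40 clusters were found, and 128 of their 252 sites (50.8%, interval 44.7 to 56.9%) lay within 50 bp of an NKX2.1 peak, against 45.1% of 30537 PAX8 sites that stood alone. The intervals of the clusters reached below the share at sites that stood alone. In groups of 5 sites the shares were 52.4% for NKX2.1 and 50.3% for PAX8. Every cluster made from 1 list overlapped a cluster of the pooled lists, which was nearly fixed in advance because pooling only adds peaks. Mecom and Mir148a were met by clusters of either list.

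The cluster with the most sites, chr2:75757382-75790395 (mm10), was also the longest at 33014 bp and overlapped no protein-coding gene. It lay 41782 bp from the nearest start, that of Agps, an enzyme of ether lipid synthesis, and held both TFs at 5 sites, NKX2.1 alone at 1 and PAX8 alone at 5. Clmn, which encodes an actin-binding membrane protein, held a cluster of 10 sites over 29511 bp (chr12:104801921-104831431) in its introns. Zfp292, a zinc finger gene, held 10 sites over 26320 bp, and 10 sites over 25541 bp spanned the start of Calml3, a calmodulin-like gene. The fourth cluster of 10 sites, at chr6:51256576-51279936, overlapped no protein-coding gene and lay 152733 bp from the start of Nfe2l3, but it contained Mir148a, the gene of a microRNA, at 51269812 to 51269910 on the minus strand.

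Clusters of 9 sites were named at Kcnj15, an inward rectifier potassium channel gene, at Afap1l2, at Smco4, at Hexa, which encodes a lysosomal hexosaminidase subunit, and over Traf4, Nek8, Tlcd1 and Rpl23a. This last cluster (chr11:78159062-78183813) was the only one to overlap 4 protein-coding genes, and the starts of all 4 lay inside it. Reep3 completed the longest clusters with 30668 bp and 8 sites. The densest cluster was the intronic one of Sertad2 with 6 sites in 7492 bp, none of both TFs, followed by Gsn, which encodes the actin-severing protein gelsolin, at 0.73 sites per kb, Tjp3 with Pip5k1c at 0.68, Pik3c2b at 0.68 and Setbp1 at 0.67.

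The largest shares of sites with both TFs were 6 of 7 at Mecom, a zinc finger TF, and 5 of 6 at Dnmt3a, a de novo DNA methyltransferase, at Eya2, a transcriptional coactivator with phosphatase activity, upstream of Scd2, a fatty acid desaturase, and near Abcd3, a peroxisomal transporter. The Mecom, Eya2 and Scd2 clusters had no site of PAX8 alone, and the Dnmt3a and Abcd3 clusters none of NKX2.1 alone.

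**Figure D3:**
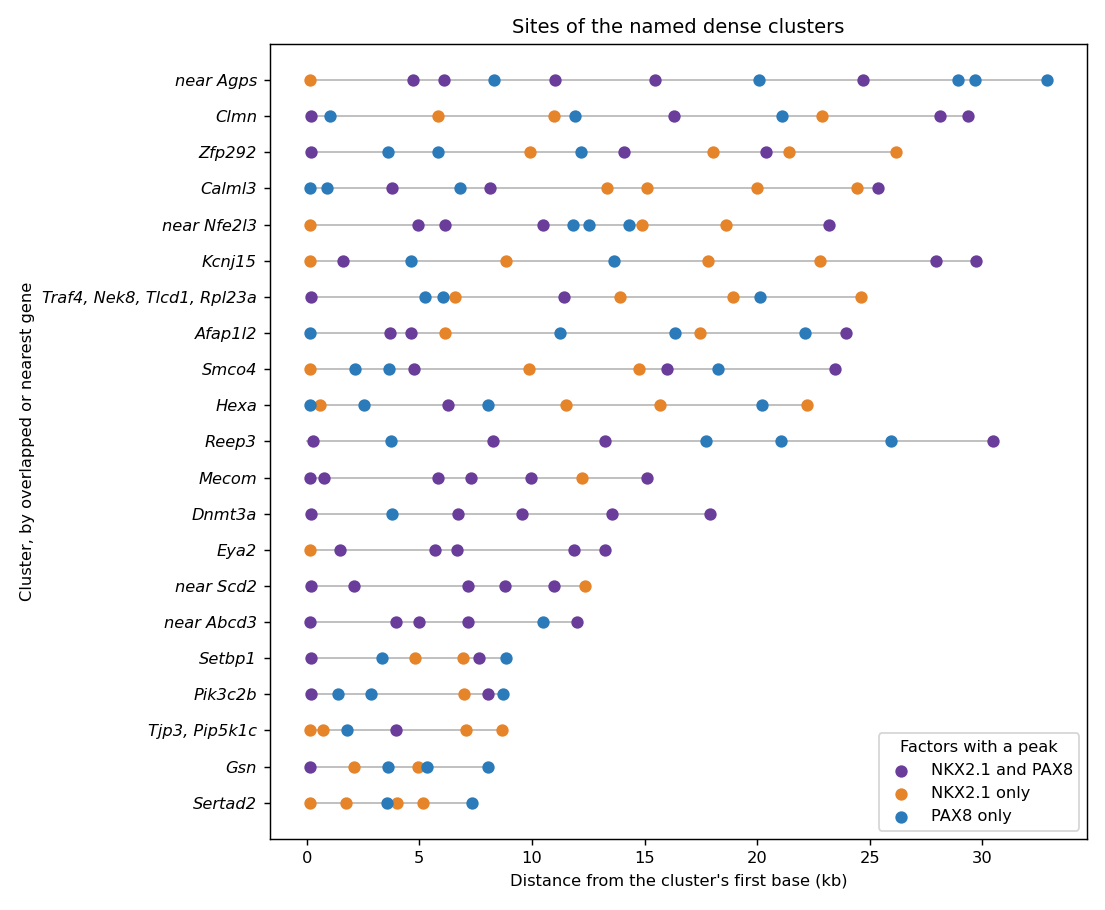
Positions of the sites (points) along 21 named clusters (rows, by the protein-coding gene overlapped or nearest), in kb from the first base of each cluster, with purple for sites of both TFs, orange for NKX2.1 alone and blue for PAX8 alone, and grey lines for the extent of the cluster. Rows run from the cluster near Agps with 11 sites to clusters of 6 sites, and Mecom is the row with 6 purple points of 7.

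Clusters were spread over the genome. Chromosomes 4 and 8 had the most with 18 each, and the share of a chromosome's sites that lay in clusters ran between 1.32% on chromosome 10 and 3.42% on chromosome 19. Neighbouring clusters on a chromosome were 4686250 bp apart in the median, but 7 pairs lay within 100 kb. These pairs were chosen after their values were seen. A gap of 6515 bp separated 2 clusters in Tbc1d14, and 7188 bp separated the cluster upstream of Scd2 from the one over the gene. Aopep and Setbp1 also held 2 clusters each.

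Sites in clusters lay mostly in introns and nearer to genes than other sites. The median distance to a transcription start site (TSS) of any curated transcript was 13016 bp in clusters, 18591 bp in groups of 2 to 5 sites and 25626 bp in groups of 1 site. Introns held 62.6% of sites in clusters, against 53.0% in groups of 2 to 5 sites and 46.5% in groups of 1 site. Intergenic sequence held 21.3%, 28.2% and 38.0% of the sites of these classes in the same order. TSS-proximal sites, within 1 kb upstream of a TSS, were 4.87% in clusters, 8.14% in groups of 2 to 5 sites and 6.99% in groups of 1 site. Within clusters, sites of both TFs were farther from a TSS, with a median of 14747.5 bp, than sites of NKX2.1 alone with 11698 bp or PAX8 alone with 12321.5 bp. This was not particular to clusters. In groups of 2 to 5 sites the medians were 23366, 17393 and 15035.5 bp in the same order, and in groups of 1 site 28868, 24443 and 23633 bp.

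Clusters overlapped 227 of 21000 protein-coding genes (1.08%), a number that equals the count of clusters by coincidence. The start of 100 of these genes (0.476% of all) lay inside a cluster. Of the clusters, 159 overlapped 1 gene, 23 overlapped 2, 7 overlapped 3, 1 overlapped 4, and 37 overlapped none. A total of 98 clusters lay wholly within 1 gene, 87 contained a protein-coding start and 140 did not. The 37 clusters outside genes were 39182 bp from the nearest protein-coding start in the median, and the farthest, near Ptpru, was 429232 bp away. Curated non-coding genes were overlapped by 25 clusters, 7 of which overlapped no protein-coding gene.

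Genes that a cluster overlapped were long. Their median length was 57840 bp, against 16724 bp for all protein-coding genes, and the share overlapped was 0.479% of genes under 10 kb, 0.811% of 10 to 30 kb, 1.38% of 30 to 100 kb, 3.46% of 100 to 300 kb and 2.28% of longer ones. A long gene can be met by a region in more places, and gene length was not adjusted for. Among 5295 genes with peaks of both TFs within 5 kb of a start, 172 (3.25%) were overlapped. The same peaks built the clusters, so this share is a description and does not stand apart from the rule.

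Several lists of thyroid genes were not met by clusters. None of 8 genes induced by thyroid-stimulating hormone, 11 further thyroid function genes or 5 thyroid TF genes was overlapped, against 1.08% of all protein-coding genes.

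Other lists had at most 2 genes each under a cluster. Among receptor tyrosine kinases and their adaptors, 2 of 14 were overlapped, Fgfr2, a fibroblast growth factor receptor, and Gab1, a docking protein. Lists with 1 gene each were extracellular matrix (Col4a2, a basement membrane collagen chain, of 21), Rap and Ras GTPase-activating proteins (Dab2ip, of 13), cAMP and immediate early genes (Adcy9, an adenylyl cyclase, of 14), retinal determination genes (Eya2, of 9) and endoplasmic reticulum genes (Pdia4, a disulfide isomerase, of 12). Ddc, an enzyme of amine synthesis, was 1 of 8 markers of thyroid C cells, and its cluster also reached Fignl1, whose start was nearer. No gene was overlapped in the lists for inflammation (8 genes), epithelial adhesion (14), the Hippo pathway (13), housekeeping (12), Hox genes (39), or markers of parathyroid (4), endothelial (9), fibroblast (10), immune (11) and skeletal muscle cells (9). With lists this short a count of 0 or 1 sets no order among them.

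Histone lists held 15692 to 17044 H3K4me3 peaks per library. For H3K27me3, the Glis3KO-LID library stood apart with 18040 peaks over 55.11 Mb, whereas the other 3 held 2631 to 4116 peaks over 7.47 to 13.26 Mb. At the TSSs of 7 follicular cell markers H3K4me3 was found at 7 in Glis3KO-LID, 5 in WT-LID, 7 in Glis3KO-ND and 6 in WT-ND, with Tg unmarked in either WT library. Of 3 endothelial markers 2 or 3 were marked in each library and of 3 fibroblast markers 1 or 2, and the part of these cell types in the results was not tested. Of 3 C cell markers 1 was marked in Glis3KO-LID and 2 in each other library. Calca, the calcitonin gene of C cells, had 0 bp of H3K4me3 around its TSS in Glis3KO-LID, 931 bp in WT-LID, 909 bp in Glis3KO-ND and 752 bp in WT-ND, and it had 2001 bp of H3K27me3 in Glis3KO-LID and 0 bp in the other 3. Col1a1, a collagen gene of fibroblasts, had no H3K4me3 in either Glis3KO library, against 756 bp in WT-LID and 642 bp in WT-ND. None of the 3 immune, 2 parathyroid and 3 skeletal muscle markers carried H3K4me3 in any library.

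H3K4me3 met nearly 1 in 2 clusters, mostly those with a gene start. An H3K4me3 peak was overlapped by 104 of 227 clusters in Glis3KO-LID and by 104 in WT-LID (45.8%, interval 39.5 to 52.3%), and by 103 in Glis3KO-ND and 106 in WT-ND. Of the 87 clusters with a protein-coding start 75 (86.2%) were marked in WT-LID, and of the 140 without one 29 (20.7%) were marked. Among 134 clusters without a start of any curated transcript 25 (18.7%) were marked. H3K4me3 covered 6.26% of the summed cluster length in WT-LID. Marked clusters had both TFs at 31.5% of sites and unmarked clusters at 34.2%. Within clusters, 10.9% of sites overlapped H3K4me3 in WT-LID, with 6.88% for sites of both TFs, 12.9% for NKX2.1 alone and 12.8% for PAX8 alone.

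The clusters with the largest share of their length under H3K4me3 in WT-LID are named after their values were seen. Tjp3 with Pip5k1c led with 46.2%, followed by the cluster over Ccnd1, which encodes cyclin D1, with 39.8%, the cluster over Traf4, Nek8, Tlcd1 and Rpl23a with 32.8%, and Klf9, a zinc finger TF gene, with 32.0%. At Klf9 the cluster of 9 sites had 5455 bp under H3K4me3 in Glis3KO-LID, 7116 bp in WT-LID, 6290 bp in Glis3KO-ND and 7172 bp in WT-ND. At the Mir148a cluster the values were 1951 bp in Glis3KO-LID, 2337 bp in WT-LID, 1976 bp in Glis3KO-ND and 2139 bp in WT-ND. At both, H3K4me3 was present in all 4 libraries and shorter in Glis3KO than in WT on either diet. Bri3 went the other way, with 4309 bp in Glis3KO-LID, 3707 bp in WT-LID, 4654 bp in Glis3KO-ND and 2941 bp in WT-ND. Over all clusters 68 had fewer bases in Glis3KO and 49 more on the LID, and 74 fewer and 40 more on the ND. The whole H3K4me3 lists were also shorter in Glis3KO, with 0.844 times the bases of WT on the LID and 0.972 times on the ND. The same split over all site groups is not given here, so these counts describe the clusters alone.

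Several named clusters rich in sites carried no H3K4me3. The clusters at Mecom, Dnmt3a, Eya2, Zfp292, Sertad2, Gsn and Pik3c2b and the one near Abcd3 had 0 bp in all 4 libraries. Of these the Eya2 and Gsn clusters contained a protein-coding start.

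Since clusters are longer than other groups and can meet a histone peak more often, fixed windows of 10 kb around the midpoint of each group were compared. In WT-LID 68 of 227 cluster windows held H3K4me3 (interval 24.4 to 36.2%), against 28.7% of windows at groups of 2 to 5 sites and 17.7% at groups of 1 site. The clusters and the groups of 2 to 5 sites did not separate beyond their intervals. Where the midpoint lay farther than 5 kb from a TSS, the shares were 15.0% of 173 cluster windows (interval 10.5 to 21.1%), 7.23% at groups of 2 to 5 sites and 4.53% at groups of 1 site. Within 5 kb of a TSS the shares were 77.8% of 54 cluster windows, 83.5% and 74.6% in the same order.

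**Figure D4:**
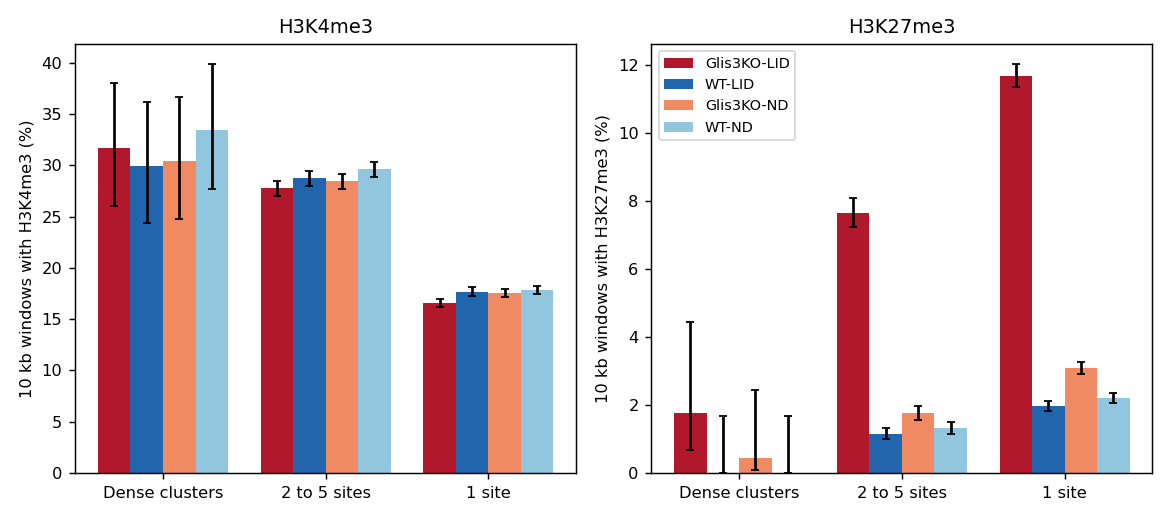
Percent of 10 kb windows (vertical axis) that overlapped an H3K4me3 (left) or H3K27me3 (right) peak at dense clusters, groups of 2 to 5 sites and groups of 1 site, in Glis3KO-LID (dark red), WT-LID (dark blue), Glis3KO-ND (orange) and WT-ND (light blue), with Wilson 95% intervals over windows as error bars. H3K27me3 in Glis3KO-LID was 1.76% at clusters, 7.65% at groups of 2 to 5 sites and 11.7% at groups of 1 site.

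H3K4me3 peaks at starts inside clusters were wider in the median than at other starts, but the quartiles overlapped. Of 114 protein-coding starts inside clusters 91 (79.8%) lay in an H3K4me3 peak in WT-LID, and these peaks were 2369 bp wide in the median (quartiles 1656.5 and 3167.5 bp). Outside clusters the median was 1990 bp (quartiles 1494 and 2566 bp) at starts with both TFs within 5 kb, 1816 bp with 1 TF and 1532.5 bp with none. Peaks of 4 kb or wider were 5.49% of those in clusters (5 of 91), against 4.77% where both TFs were within 5 kb outside clusters.

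H3K27me3 was not called over any cluster in WT. No cluster overlapped an H3K27me3 peak in WT-LID or WT-ND (0 of 227, interval 0 to 1.66%). In windows of 10 kb WT-LID had 0 of 227 at clusters, 1.14% at groups of 2 to 5 sites and 1.98% at groups of 1 site. The nearest H3K27me3 peak in WT-LID was 341065 bp away from a cluster in the median, against 395594 bp for groups of 2 to 5 sites and 436230 bp for groups of 1 site, and 7.05%, 8.96% and 10.6% of these classes had one within 50 kb. In the median, clusters were nearer to H3K27me3 than the other classes.

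H3K27me3 met 6 clusters in Glis3KO-LID and 1 in Glis3KO-ND, which are named after their values were seen. At Tns3, which encodes a focal adhesion protein, it covered 6381 bp in Glis3KO-LID and 0 bp in WT-LID, and 2630 bp in Glis3KO-ND and 0 bp in WT-ND. The cluster nearest to Nkx2-2, within the antisense gene Nkx2-2os, had 5735 bp in Glis3KO-LID and 0 bp in the other 3 libraries. In WT-LID an H3K27me3 peak lay 5251 bp away from this cluster. The remaining clusters with the mark in Glis3KO-LID were Dgcr6 (1866 bp), Ccnd1 (1251 bp), Wnt4, which encodes a secreted signalling protein (1001 bp), and Rbm47, an RNA-binding protein gene (1001 bp). When the Glis3KO-LID list was restricted to its 4116 widest peaks, as many as in the next longest list, 2 clusters were marked in place of 6.

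Glis3KO and WT were compared next, to see whether clusters gained or lost marks without GLIS3. A window was called gained when at least 500 bp were covered in the library named first and 0 bp in the other, and lost in the opposite case. H3K27me3 was gained in Glis3KO-LID against WT-LID in 4 of 227 cluster windows (1.76%, interval 0.687 to 4.44%), against 8.16% of windows at all site groups. The gain at clusters was below the background, in a comparison in which the Glis3KO-LID list was 7.35 times as long in bases. In Glis3KO-ND against WT-ND it was gained in 1 cluster window, against 1.19% at all site groups. No cluster window lost H3K27me3 in either comparison, against 0.0653% on the LID and 0.493% on the ND at all site groups.

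For H3K4me3, Glis3KO-LID against WT-LID gained 10 cluster windows (4.41%) and lost 7 (3.08%), against 1.63% gained and 2.58% lost at all site groups. Glis3KO-ND against WT-ND gained 7 (3.08%) and lost 13 (5.73%), against 1.73% and 2.27%. At groups of 2 to 5 sites 2.34% were gained and 3.18% lost on the LID, and 2.29% gained and 3.41% lost on the ND. The share lost on the LID was thus slightly lower at clusters than at these groups, and the other 3 shares were higher at clusters. Only the share gained on the LID had a Wilson interval (2.41 to 7.92%) that lay above the share at these groups, and only just. The intervals of both shares lost and of the share gained on the ND contained the share at these groups, so clusters did not separate there. Summed over clusters, H3K4me3 covered 0.906 times as many bases in Glis3KO-LID as in WT-LID and 0.905 times as many in Glis3KO-ND as in WT-ND, where the whole lists gave ratios of 0.844 and 0.972.

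**Figure D5:**
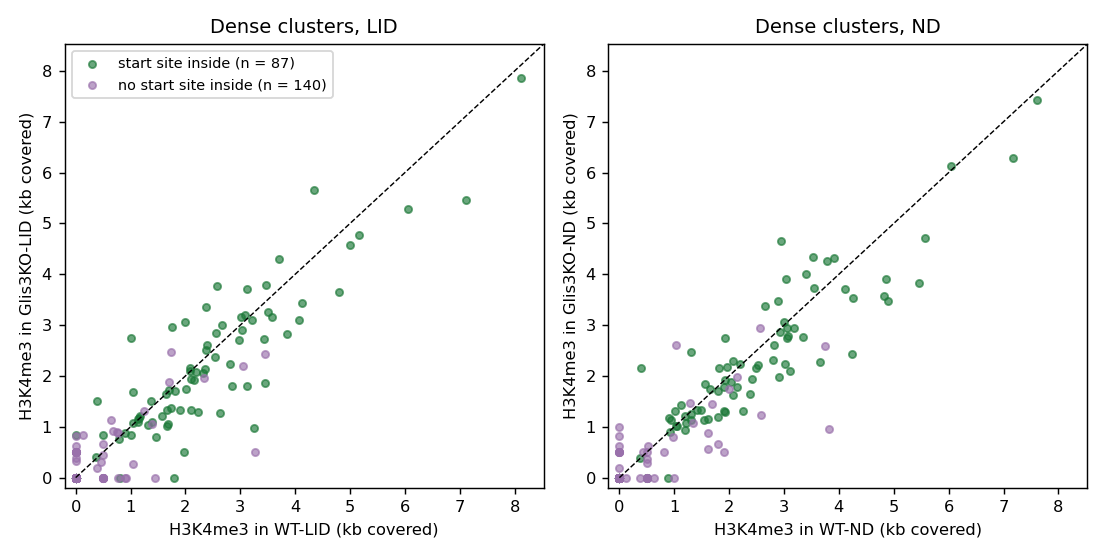
H3K4me3 in Glis3KO (vertical axis) against WT (horizontal axis), in kb covered per dense cluster, on the LID (left) and the ND (right), with green points for the 87 clusters that contain a protein-coding start and purple points for the 140 that do not, and a dashed line of equality. Clusters with fewer bases in Glis3KO than in WT outnumbered those with more, 68 against 49 on the LID and 74 against 40 on the ND. The whole H3K4me3 lists were also shorter in Glis3KO, with 0.844 times the bases of WT on the LID and 0.972 times on the ND.

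Most clusters kept the same H3K4me3 call in all libraries, since 84 were marked in all 4 and 99 in none. The same shares over all site groups are not given here, so these counts describe the clusters alone. Of the 44 other clusters, 2 were marked in Glis3KO on either diet and never in WT, and 2 in WT on either diet and never in Glis3KO. These clusters are named after their values were seen. The cluster near Agps had 501 bp in Glis3KO-LID and 501 bp in Glis3KO-ND, and the Mtcl1 cluster 386 and 184 bp. The Sulf2 and Zbtb17 clusters had 0 bp in Glis3KO and 501 bp each in WT-LID and WT-ND. The peaks at Agps, Sulf2 and Zbtb17 were 501 bp wide, and those at Mtcl1, 895 bp in Glis3KO-LID and 501 bp in Glis3KO-ND, lay partly outside the cluster. Each pattern was thus found at 0.881% of clusters, against 0.139% of all site groups for the first and 0.38% for the second, and clusters are longer than other groups. In windows of 10 kb each pattern again had 2 clusters, against 0.238% and 0.463% of all site groups, and counts of 2 are too few to set clusters apart. At Kcnj15 the bases covered were 0 in Glis3KO-LID, 921 in WT-LID, 1240 in Glis3KO-ND and 2577 in WT-ND, lower in Glis3KO on either diet and lower on the LID in either genotype.

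Diets were compared within each genotype in the same windows. WT-LID against WT-ND gained H3K4me3 in 5 cluster windows (2.20%) and lost it in 13 (5.73%), against 1.77% and 2.14% at all site groups. Glis3KO-LID against Glis3KO-ND gained 10 (4.41%) and lost 8 (3.52%), against 1.68% and 2.47%. Groups of 2 to 5 sites gained 2.29% and lost 3.17% in the WT comparison, and gained 2.5% and lost 3.1% in the Glis3KO comparison. Of the 4 H3K4me3 shares at clusters, only the share lost in WT had an interval (3.38 to 9.55%) that did not contain the share at these groups. Bases covered over clusters were 0.939 times as many in WT-LID as in WT-ND and 0.940 times as many in Glis3KO-LID as in Glis3KO-ND, where the whole lists gave 1.02 and 0.887. H3K27me3 was neither gained nor lost at clusters in WT-LID against WT-ND, against 0.574% gained and 0.764% lost at all site groups, and it was gained in 3 cluster windows and lost in none in Glis3KO-LID against Glis3KO-ND, against 7.33% and 0.154%. Comparisons that share a library are not independent of each other.

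Sequence was examined in windows of 300 bp at site midpoints, on both strands. Either NKX2.1 motif, CAAGTG or CTCAAG, was present in 49.2% of sites in clusters (interval 46.7 to 51.8%), against 46.4% of all sites and 26.4% of 32851 RefSeq promoter windows of the same length on GRCm38. The PAX8 motif GCNTGAC was present in 16.4% of sites in clusters, 16.6% of all sites and 10.7% of promoter windows. The forkhead motif TGTTTAC was present in 5.67%, 4.71% and 3.65% of the same sets, and the CREB motif TGACGTCA in 0.667%, 0.614% and 1.79%.

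Within clusters the motifs followed the peaks. An NKX2.1 motif was found at 59.3% of sites of both TFs (interval 54.9 to 63.6%), at 52.5% of those with NKX2.1 alone and at 37.4% of those with PAX8 alone. GCNTGAC was found at 91 of 494, 46 of 459 and 109 of 546 of these sites in the same order. Among sites of both TFs in all groups, 53.5% held an NKX2.1 motif and 16.8% GCNTGAC. In 86 clusters at least 1 site held motifs of both TFs, 79 clusters had no GCNTGAC at any site and 4 had no NKX2.1 motif. The windows in clusters were 49.3% GC in the median, against 48.3% for all sites, and 2.47% of them were more than 50% repeat-masked sequence, against 4.16%. Base composition was not adjusted for in these shares.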

How the data were processed

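Peak lists of 10 immunoprecipitated mouse libraries were used, and 5 further lists (rat lists and the authors' unified histone regions) were not used here. Per the study's methods and the submitters' processing notes, the authors trimmed reads with cutadapt 1.12, placed uniquely mapping reads on mm10 with Bowtie 1.2, discarded duplicates (Picard 1.110) and used HOMER 4.10.3 for peak calling, narrow for TFs and as broad regions for histone marks. The deposited lists hold coordinates without scores or read counts, so strong and weak peaks count alike and depth is unknown. The deposited NKX2.1 and PAX8 lists are longer than those the study describes, the difference was not resolved, and every cluster count rests on the deposited lists. A deeper library can yield more peaks and thus denser clusters.

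All factor peaks were 300 bp wide. Sites, clusters and overlaps (1 bp or more) were computed with Python 3.11.15, pandas 2.3.3 and NumPy 2.4.6, intervals with SciPy 1.17.1 and figures with Matplotlib 3.10.9, after the procedure had been tested on simulated peaks. Genes were protein-coding genes with curated RefSeq transcripts on GRCm38.p6. Motifs were read from that assembly, and sites on unplaced sequences were left out. Clusters were named when they were among the 10 with most sites, or the 5 longest, densest or richest in sites of both TFs, or overlapped a gene of lists of thyroid genes, and 1 item under this rule is not reported here. No cluster lacked a TF and none had H3K27me3 in WT-LID, for which names had also been reserved. The clusters, the 21 gene lists and the motifs were chosen with earlier results of these data known. Alternatives changed the merging distance, the gap, the minimum number of sites, the lists pooled and the overlap required.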

Additional observations from a re-analysis of the deposited data

Results flagged for a closer look

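Some effects at dense clusters ran in opposite directions in the 2 settings of the same contrast. With 1 library per group, the difference between the settings was not tested in any of them. The number of clusters with an H3K4me3 peak differed by -2 in WT-LID against WT-ND and by 1 in Glis3KO-LID against Glis3KO-ND. H3K4me3 windows gained minus windows lost came to 3 in Glis3KO-LID against WT-LID and to -6 in Glis3KO-ND against WT-ND. The same balance was -8 in WT-LID against WT-ND and 2 in Glis3KO-LID against Glis3KO-ND. All are small beside 227 clusters, and the contrasts share libraries.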

How the results depend on the processing

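Of 52 values under the listed alternatives, 27 stayed within the Wilson interval of the main share, the interval of the main median length (14216 to 15464 bp) or 1.5 times the main count. The number of clusters followed the rule itself. It was 7 with gaps of at most 2.5 kb, 1660 with gaps of at most 10 kb, 612 with 5 or more sites, 36 with 8 or more sites, 13 from the NKX2.1 list alone and 40 from the PAX8 list alone. The median length was 9968, 27808, 11674 and 19994.5 bp under the first 4 of these and 13461 bp for NKX2.1 alone. Genes overlapped numbered 6, 1778, 545, 43, 9 and 39 under these 6 settings, and 100 when a start had to lie inside a cluster. Sites of both TFs were 29.5% with gaps of at most 2.5 kb and 29.3% when peaks had to overlap by at least 150 bp. From a single list the measure was another one, the share of sites within 50 bp of a peak of the other TF. It was 59.0% from NKX2.1 alone and 50.8% from PAX8 alone. Sites of the other TF alone are left out there, so these shares are not comparable with the main share. Clusters with H3K4me3 in WT-LID were 54.8% with gaps of at most 10 kb, 66.7% with 8 or more sites and 37.5% from PAX8 alone, where the cause was not tested. Longer regions can meet more peaks. H3K27me3 in WT-LID stayed at 0 to 1.57% of clusters. Restricting the H3K27me3 list of Glis3KO-LID to its 4116 widest peaks, chosen after seeing the data, gave 2 marked clusters in place of 6. Merging peaks within 0 or 150 bp gave 233 and 213 clusters. No paired analysis was run, since each group had 1 library, and Glis3KO and WT were only set side by side within each diet, without a fit. A stricter peak threshold could not be applied to lists without scores, so which clusters rest on weak peaks is unknown.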
